A study of Mus musculus with 16 samples.

Results

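*Clca3a1*, *Clca3a2*, *Entpd2* and *Itga4* are 4 genes of 19937 with a probeset of their own name on the array, and they lie outside the miR-183 cluster and the other elements of the transgene. They were chosen by their signals in the organ of Corti (OC) at postnatal day 5 (P5), where each was higher in transgenic than in wild-type (WT) samples. Each gene is read by a single probeset, and all 4 were measured on all 16 arrays. RNA had been hybridised to Affymetrix MoGene 1.0 arrays from the microdissected OC at P5 in 5 Tg/Tg and 5 WT samples, and from the cochlea at P18 in 3 Tg/Tg and 3 WT samples. All mice were of the FVB/NCrl strain. Tg/Tg mice are homozygotes of the Tg1MDW line, which descends from 1 founder and carries *Mir183*, *Mir96* and *Mir182* under the core promoter of the human glial fibrillary acidic protein gene, and WT mice carry no transgene. In the inner ear that promoter serves to drive the transgene in supporting cells, but it was also active in Schwann cells and the spiral limbus, and the study could not see the misexpression by in situ hybridisation at ages before P18. Neither labels nor methods say if tissue of several animals was joined for 1 array, so p-values measure the spread between these samples, which may be technical. Samples were grouped by title. In the remaining label fields the ages read 5.5 and 18.5 days, and these fields disagree with the titles on age, tissue and genotype.

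The members belong to 3 families that act at the cell surface. The Clca proteins are secreted or membrane-bound and modify calcium-activated chloride conductance, chiefly in epithelia. Ectonucleotidases of the Entpd family break down extracellular ATP, a signal between the supporting cells and hair cells of the developing cochlea, and *Entpd2* encodes the member that turns ATP mainly into ADP. Integrins join cells to the matrix and to each other as pairs of an alpha and a beta chain, and the alpha4 chain of *Itga4*, best known from leukocytes, pairs with the chains of *Itgb1* or *Itgb7* and binds fibronectin and *Vcam1*.

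What separates the genotypes by design is the cluster of 3 miRNAs, whose mature sequences (RefSeq, GRCm38.p6, 5′ to 3′) are given here with bases 2 to 8, the seed that pairs with target RNAs, in capitals. They lie on the minus strand at chr6:30165962-30165986, chr6:30169506-30169528 and chr6:30169711-30169732.
mmu-miR-182-5p: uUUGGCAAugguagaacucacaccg
mmu-miR-96-5p: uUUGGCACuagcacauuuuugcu
mmu-miR-183-5p: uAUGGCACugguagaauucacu
The 3 seeds are different but closely similar sequences. Those of miR-182 and miR-96 differ only in the last base, and those of miR-96 and miR-183 only in the first. Target sites in the 4 genes were not analysed here.

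The 4 genes share a direction at P5 by the way they were chosen, so this is no sign of common control. The 250 bases before their annotated starts were searched on both strands for common promoter motifs. These were the GC box GGGCGG, the CCAAT box CCAAT, the TATA box TATAAA and the E-box CANNTG. The stretches of 30 bases around a GC or CCAAT box are printed 5′ to 3′ on the strand of the gene with the motif in capitals (RefSeq promoter sequences, GRCm38.p6). They lie at chr3:144761128-144761157 (minus strand), chr3:144760994-144761023 (minus), chr2:25395844-25395873 (plus) and chr2:79255300-79255329 (plus), and the motifs begin 168, 33, 11 and 114 bases before the start of the gene.
*Clca3a1*, GC box: aaaagggcagggGGGCGGggaggagatggg
*Clca3a1*, CCAAT box: aacagcacagcagCCAATctgataagtttc
*Entpd2*, GC box: ggtgggagggccttaacgtGGGCGGggcct
*Itga4*, GC box: acagctgctgcgGGGCGGggatggggatcg
*Entpd2* holds 2 GC boxes, of which the nearer is shown, and *Clca3a2* holds neither a GC box nor a CCAAT box. None of the 4 windows holds TATAAA, while *Clca3a2*, *Entpd2* and *Itga4* hold 1 E-box each. Of 32851 mouse promoters in the same table, 32.7% hold GGGCGG, 33.8% CCAAT, 12.4% TATAAA and 66.2% CANNTG, so each of the motifs found is common.

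At P5, *Clca3a1*, *Clca3a2*, *Entpd2* and *Itga4* had signals 1.63, 1.82, 1.72 and 1.39 times as high in Tg/Tg as in WT. These folds picked the genes and are given as a description, without a test. Y-linked signal was also unevenly spread over the Tg/Tg and WT arrays at P5, as given below. In the limma fit 21 of 34760 probesets, 0.0604%, were higher in Tg/Tg at P5 at an adjusted p under 0.05, and the 4 genes are among them by the way they were chosen. Of these 21 probesets 15 have a single gene name. They comprise 4 elements of the transgene (*Prm1*, *Mir182*, *Mir96* and *Mir183*, with log2 changes of 3.31 to 3.68), 5 genes of chromosome 9 (*Rwdd2a*, *Pgm3*, *Dop1a*, *Ube2cbp* and *Acsbg1*), the 4 genes described here, *Olfr1412* and *Gabra5*. The paper maps the transgene of this line to chromosome 9 as well, while the 4 genes described here lie on chromosomes 2 and 3. The part of the insertion site in the P5 values was not tested. By size of the log2 change *Clca3a2*, *Entpd2*, *Clca3a1* and *Itga4* stand at places 7, 8, 10 and 15 of the 21. *Itga4* at 0.47 is the smallest of the 4, and the named genes next below it are *Olfr1412* at 0.46 and *Gabra5* at 0.45. In either direction 212 probesets, 0.61%, were called at P5. These counts depend on single arrays, since without Tg/Tg replicate 3 there were 1444 higher calls and 2907 in all (8.36%), and without WT replicate 1 there were 186 and 594 (1.71%). Array weights gave 724 and 1715 (4.93%).

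*Clca3a1* had log2 signals of 5.23, 5.44, 5.22, 5.28 and 5.47 on Tg/Tg arrays 1 to 5 of the P5-OC. On WT arrays 1 to 5 it had 4.53, 4.60, 4.55, 4.71 and 4.72. The groups lie apart, and the WT arrays are tightly grouped at the dim end of the array. Group means were 5.33 ± 0.12 (SD, n = 5) and 4.62 ± 0.09 (SD, n = 5), a difference of 0.70 on the log2 scale (standard error 0.10). The WT signals of *Clca3a1* lie below the lower quartile of all probesets, which was between 4.82 and 5.05 on the P5 arrays, and at such low signals an array may understate a fold change.

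*Clca3a2* had log2 signals of 6.86, 6.97, 7.27, 6.44 and 6.997 on the Tg/Tg arrays at P5. Its WT signals were 6.09, 5.96, 6.13, 6.005 and 6.05. The WT arrays lie within a narrow band, whereas the Tg/Tg arrays are spread, with replicate 4 lowest and replicate 3 highest, and all Tg/Tg values are above all WT values. The means were 6.91 ± 0.30 (SD, n = 5) and 6.05 ± 0.06 (SD, n = 5), and the difference of 0.86 (standard error 0.12) is the largest among the 4 genes. *Clca3a1* and *Clca3a2* are close paralogues that lie next to each other on chromosome 3, and whether the probes for 1 of them also take up RNA of the other was not tested.

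*Entpd2* had log2 signals of 7.61, 7.66, 8.04, 7.93 and 7.80 in Tg/Tg at P5. In WT it had 7.10, 6.77, 6.98, 7.24 and 7.04. The highest WT array, replicate 4, stays under the lowest Tg/Tg array, replicate 1. The means of 7.81 ± 0.18 (SD, n = 5) and 7.02 ± 0.17 (SD, n = 5) differ by 0.78 (standard error 0.10).

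*Itga4* had log2 signals of 7.97, 8.25, 8.06, 7.96 and 7.72 in Tg/Tg at P5. Its WT signals were 7.62, 7.64, 7.42, 7.41 and 7.51. The groups come closest here, between Tg/Tg replicate 5 and WT replicate 2, and still do not overlap. The means were 7.99 ± 0.19 (SD, n = 5) and 7.52 ± 0.11 (SD, n = 5), a difference of 0.47 (standard error 0.09). Every Tg/Tg array was thus above every WT array at P5 for 4 of the 4 genes, which holds for 133 of all probesets, 0.383%, and again reflects how the genes were chosen. In a bulk sample a rise in the cells that make an RNA and a rise in RNA per cell cannot be told apart.

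**Figure D1:**
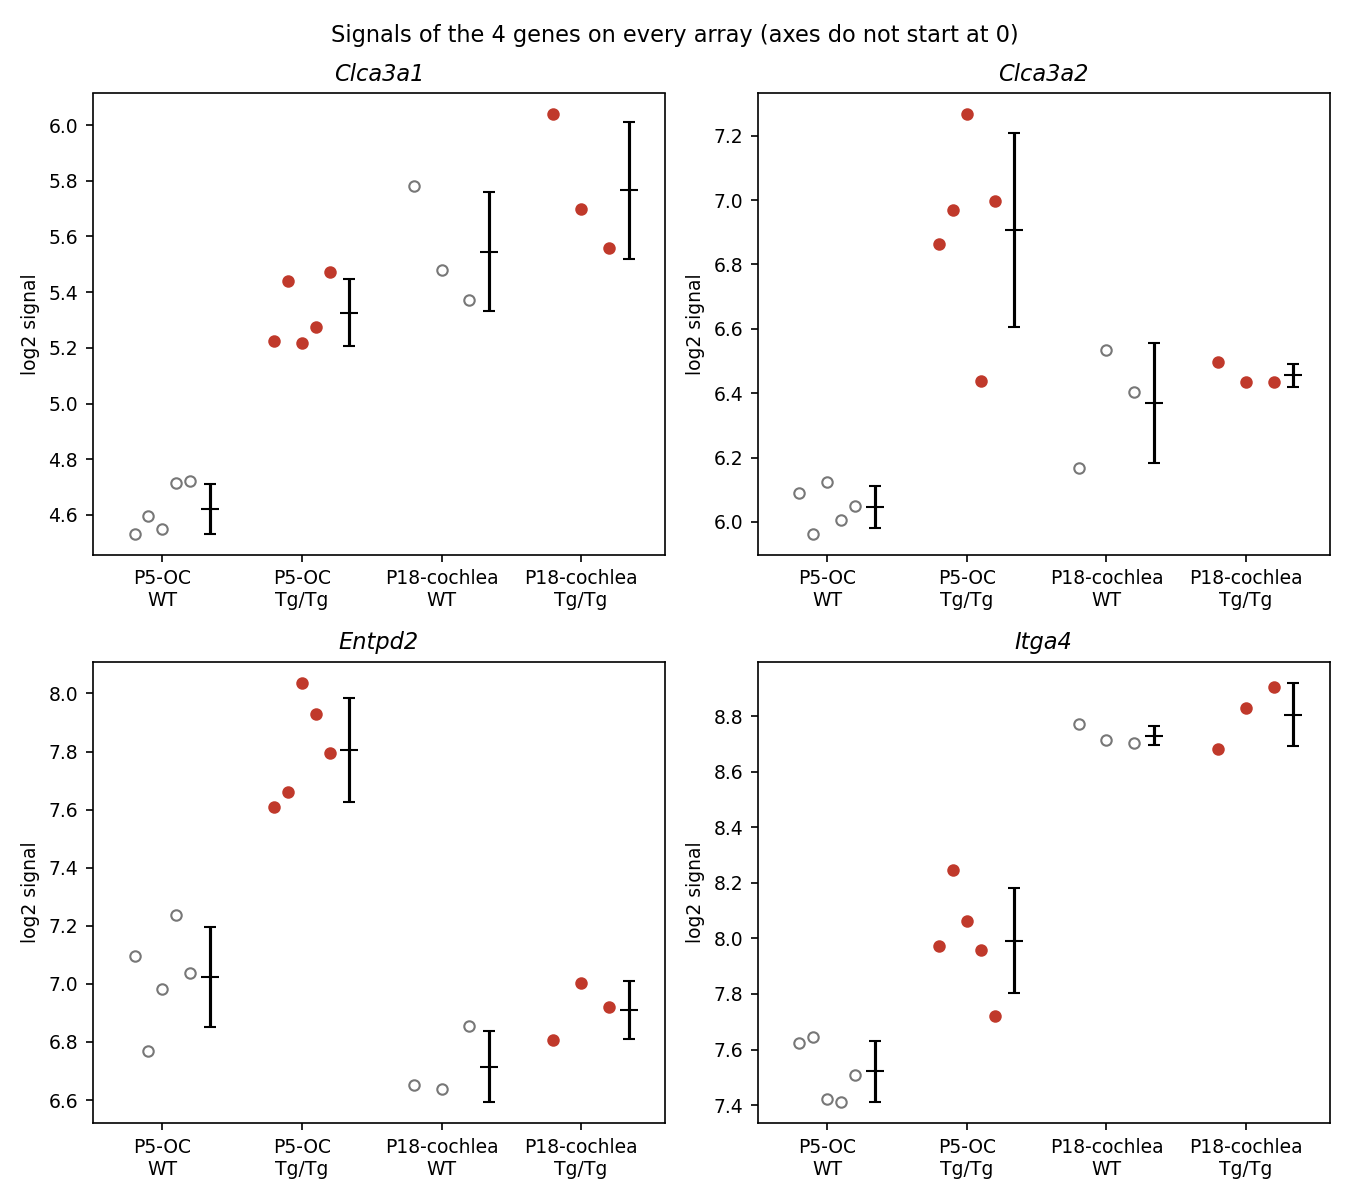
Log2 signal (vertical axes, each on its own scale) of *Clca3a1*, *Clca3a2*, *Entpd2* and *Itga4* on each of the 16 arrays, by group (horizontal axes), with open points for WT, filled points for Tg/Tg, and black bars for the mean ± SD (n = 5 at P5, n = 3 at P18). At P5 the filled points lie above the open points in every panel, while at P18 they overlap in every panel.

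At P18 none of the 4 genes was called between Tg/Tg and WT. The P18 arrays took no part in the choice of the genes, so this comparison could be tested. *Clca3a1* had log2 signals of 6.04, 5.70 and 5.56 in Tg/Tg and of 5.78, 5.48 and 5.37 in WT. *Clca3a2* had 6.50, 6.44 and 6.44 in Tg/Tg and 6.17, 6.53 and 6.40 in WT. For *Clca3a1* the highest WT array is above the middle and lowest Tg/Tg arrays, and for *Clca3a2* a WT array is the highest of all 6. *Entpd2* had 6.81, 7.002 and 6.92 in Tg/Tg and 6.65, 6.64 and 6.86 in WT. *Itga4* had 8.68, 8.83 and 8.91 in Tg/Tg and 8.77, 8.71 and 8.70 in WT. WT replicate 3 of *Entpd2* is above Tg/Tg replicate 1, and Tg/Tg replicate 1 of *Itga4* is the lowest of its 6 arrays.

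The log2 difference at P18 was 0.22 for *Clca3a1* (95% interval -0.05 to 0.49, adjusted p = 0.7 in limma) and 0.09 for *Clca3a2* (-0.24 to 0.41, adjusted p = 0.94). It was 0.20 for *Entpd2* (-0.08 to 0.47, adjusted p = 0.75) and 0.08 for *Itga4* (-0.17 to 0.32, adjusted p = 0.93). All 4 estimates are above 0, but all intervals include 0. That of *Clca3a2* turned to -0.014 without WT replicate 1 and was 0.17 without WT replicate 2. That of *Clca3a1* was 0.08 without Tg/Tg replicate 1, 0.13 without WT replicate 3 and 0.34 without WT replicate 1, and that of *Itga4* was 0.03 without Tg/Tg replicate 3 and 0.14 without Tg/Tg replicate 1. In the fit of all arrays 0 of the 4 genes had an unadjusted limma p under 0.05 (0.108, 0.574, 0.146 and 0.521). Exact two-sided permutation tests over the arrays gave p = 0.4, 0.7, 0.2 and 0.4, where 3 arrays against 3 cannot go below 0.1. In the same fit 154 probesets, 0.443%, were called at P18, against 85 to 112 without single P18 arrays, 475 in a fit of the P18 arrays alone and 2179 (6.27%) with array weights. Tg/Tg lay wholly above WT at P18 for none of the 4 genes and for 14% of all probesets. The effect at P18 minus that at P5 was -0.48 for *Clca3a1*, -0.77 for *Clca3a2*, -0.59 for *Entpd2* and -0.40 for *Itga4*, which is a description only, since the P5 arrays chose the genes.

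**Figure D2:**
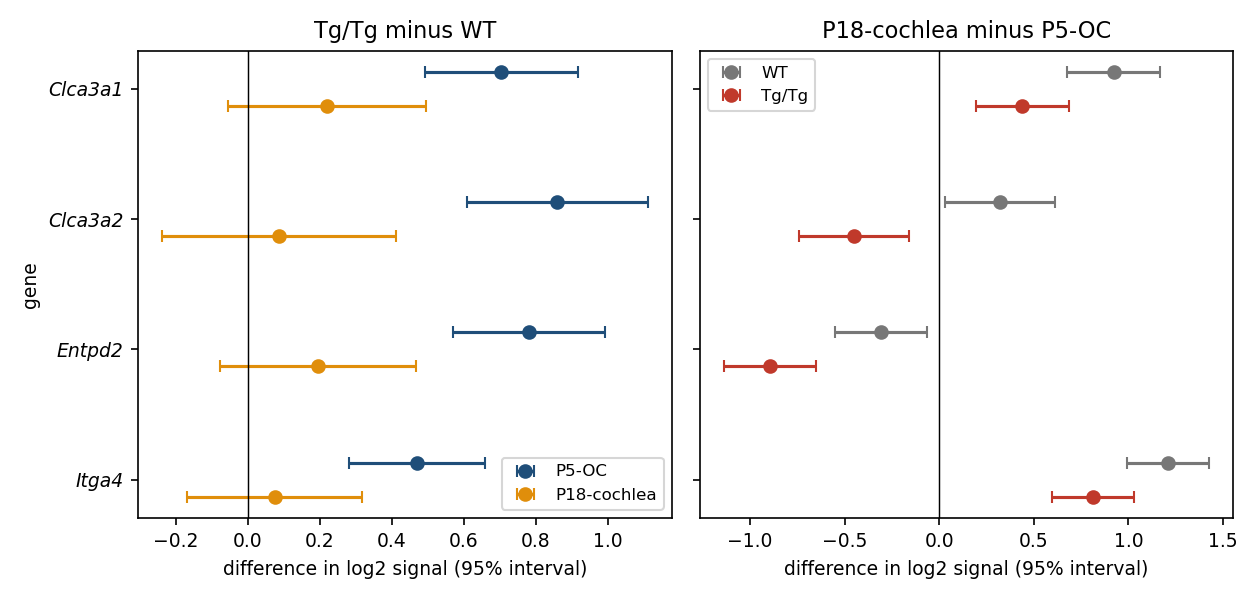
Differences in log2 signal (horizontal axes) with 95% intervals from the limma fit for the 4 genes, on the left Tg/Tg minus WT at each age and on the right P18-cochlea minus P5-OC in each genotype. All intervals except those for genotype at P18 share arrays with the choice of the genes, so they are a description and not a test. The P18 intervals for genotype all include 0, and in the right panel the Tg/Tg points lie to the left of the WT points by 0.40 to 0.77, with *Clca3a2* on opposite sides of 0.

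In WT, *Itga4* and *Clca3a1* had clearly higher signals at P18 than at P5, *Clca3a2* slightly higher and *Entpd2* lower ones. The WT arrays at P5 are part of the comparison that chose the genes, so these changes and their intervals are also a description, without a test. *Itga4* differed by 1.21 on the log2 scale (95% interval 0.99 to 1.43), or 2.31-fold, and *Clca3a1* by 0.92 (0.68 to 1.17), or 1.90-fold. *Clca3a2* differed by 0.32 (0.03 to 0.61) and *Entpd2* by -0.31 (-0.55 to -0.07). After repeated quantile normalization these were 0.52 (standard error 0.14) for *Clca3a2* and -0.17 (standard error 0.11) for *Entpd2*. All P18 WT arrays were above all P5 WT arrays for *Clca3a1*, *Clca3a2* and *Itga4*, as for 19.7% of all probesets, while *Entpd2* overlapped and 29.5% of all probesets lay wholly lower. Changes of this kind were the rule, since 17372 probesets, 50%, were called between the ages in WT. Age and dissection change together here, from the OC alone to the whole cochlea, and cannot be told apart.

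Ordering the groups by mean level gives each gene its own pattern. *Clca3a1* went from P5 WT over P5 Tg/Tg and P18 WT to P18 Tg/Tg, with only P5 WT free of overlap with its neighbour. *Clca3a2* was lowest in P5 WT and highest in P5 Tg/Tg, with both P18 groups between them. The lowest Tg/Tg array of *Clca3a2* at P5 (6.44) is as low as Tg/Tg at P18 (6.44 to 6.50). *Entpd2* was lowest in P18 WT, then P18 Tg/Tg, then P5 WT, which overlap each other, and P5 Tg/Tg alone stands apart. *Itga4* fell into 3 separate levels, with P5 WT lowest, P5 Tg/Tg next and both P18 groups highest. In Tg/Tg the change from P5 to P18 was 0.44 for *Clca3a1*, -0.45 for *Clca3a2*, -0.90 for *Entpd2* and 0.81 for *Itga4*. The closest pair of profiles among the 4 genes is *Clca3a1* and *Itga4*, which after centring each gene on its mean differed by a root mean square of 0.28 log2 units over the 16 arrays. The pair of neighbours *Clca3a1* and *Clca3a2* differed by 0.43, and *Entpd2* and *Itga4* were farthest apart at 0.82.

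By the same measure over the 16 arrays, the genes nearest to *Clca3a1* among all named genes were *Cd101*, *Tmem88b* and *Rad18*, at 0.23 each. *B3gnt6* (0.24), *Ube2cbp* (0.25) and *Acsbg1* (0.27) were nearest to *Clca3a2*. *Defb25* (0.21), *Mir670hg* (0.23) and *Sema3c* (0.25) were nearest to *Entpd2*, and *Gca* (0.16), *Ceacam2* (0.17) and *Dclk1* (0.17) to *Itga4*. *Ube2cbp* and *Acsbg1* are on chromosome 9, where the paper maps the transgene, and are themselves among the 21 probesets called higher at P5. Apart from *Clca3a1* and *Clca3a2*, which are neighbours of each other, measured neighbours on the chromosome did not share the calls. At P5 the genes flanking the Clca pair had log2 changes of -0.05 (*Sh3glb1*, adjusted p = 0.71) and 0.18 (*Clca3b*, adjusted p = 0.33). Those flanking *Entpd2* had 0.07 (*Sapcd2*, adjusted p = 0.66) and -0.05 (*Npdc1*, adjusted p = 0.84). Those flanking *Itga4* had -0.01 (*Ube2e3*, adjusted p = 0.96) and -0.05 (*Cerkl*, adjusted p = 0.74). None of these 6 genes was called at P18 either.

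Among relatives and partners of the 4 genes, 93 measured genes on 6 lists, none was called higher and 3 were called lower at P5, against 0.61% of all probesets called in either direction. Their median log2 change was -0.05, and that of all probesets -0.01. At P18, 1 of the 93 was called higher and none lower, beside 0.443% of all probesets (median -0.01, all probesets -0.02). The 4 calls are all integrins. With array weights the numbers called were 8 at P5 and 14 at P18, where 4.93% and 6.27% of all probesets were called. Leaving out single arrays gave 1 to 10 at P5, the 10 without Tg/Tg replicate 3, where 8.36% of all probesets were called. In WT 33 of the 93 were higher and 18 lower at P18 than at P5, beside the 50% of all probesets called (median 0.06, all probesets -0.06).

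Of the other 5 Clca genes on the list (*Clca1*, *Clca2*, *Clca3b*, *Clca4a* and *Clca4b*) none was called between genotypes at either age in the fit of all arrays, and none had an unadjusted limma p under 0.05 there. Their log2 changes at P5 ran from -0.19 to 0.18, and at P18 from -0.29 to 0.45. At P5 *Clca3b*, *Clca4a* and *Clca4b* had group means between 3.34 and 4.65, below the lower quartile of all probesets. *Clca1* lay near it, at 4.98 in Tg/Tg and 4.90 in WT. At such low signals an array may understate a change, so the absence of calls says little for these genes. *Clca4b* alone was called between the ages in WT (0.38, from a mean of 3.39 to 3.77, adjusted p = 0.05 after rounding). *Clca2* did not follow genotype at P5 but split the arrays by replicate number. It read 8.67 and 8.82 on Tg/Tg replicates 1 and 2 and 8.99 and 8.77 on the WT arrays of the same numbers. On replicates 3 to 5 of both genotypes it read between 6.03 and 6.38. At P18 it read 9.27, 9.30 and 9.41 in Tg/Tg and 8.88, 8.90 and 8.85 in WT, with the groups apart. The spread at P5 enters the error of the fit of all arrays (standard error 0.84 at P18), and with the P18 arrays fitted alone *Clca2* was called at 0.45 (standard error 0.06, adjusted p = 0.039). *Panx3* (SD 1.37 in Tg/Tg and 1.02 in WT) and *Alpl* (0.998 and 0.719) on the other lists also spread widely at P5. For both, the highest P5 arrays were Tg/Tg replicate 2 and WT replicate 1. The P5 differences of the 4 genes, again a description, were 0.77 (*Clca3a1*), 0.89 (*Clca3a2*), 0.70 (*Entpd2*) and 0.47 (*Itga4*) within replicates 1 and 2. Within replicates 3 to 5 they were 0.66, 0.84, 0.83 and 0.47. As the P5 groups of these genes do not overlap, a rise in both subsets was fixed by the choice of the genes. Of 20 measured chloride channel genes none was called between genotypes at either age, with log2 changes at P5 from -0.32 to 0.25 and an unadjusted limma p under 0.05 for 4 at P5 and 2 at P18. In WT 2 of the 20 were higher and 4 lower at P18 than at P5.

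For *Entpd2* the list holds its related enzymes. Of 12 ectonucleotidases and related enzymes none was called at P5 (-0.18 to 0.23) or at P18 (-0.19 to 0.26), and 1 at each age had an unadjusted limma p under 0.05. *Entpd1*, which takes ATP and ADP down to AMP, had a log2 change of -0.05 at P5 (adjusted p = 0.77) and 0.01 at P18 (adjusted p = 0.99). *Entpd3*, which also hydrolyses both, had 0.23 at P5 (adjusted p = 0.29) and -0.19 at P18 (adjusted p = 0.78). Both rose in WT from P5 to P18, *Entpd1* by 0.66 (adjusted p = 1e-05) and *Entpd3* by 1.72 (adjusted p = 8e-09), whereas *Entpd2* had -0.31. Of 19 purine receptor and ATP release genes, which sense or supply the substrate, none was called between genotypes at either age, although 7 had an unadjusted limma p under 0.05 at P5 and 6 at P18. In WT 10 of them were higher and 3 lower at P18.

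For *Itga4* the 2 possible partner chains gave different values at P5. *Itgb1*, the shared beta chain of many integrins, fell by 0.43 on the log2 scale in Tg/Tg (standard error 0.09, adjusted p = 0.028), with P5 arrays at 9.94 to 10.31 in Tg/Tg and 10.41 to 10.84 in WT. *Itgb7*, the beta chain found chiefly on lymphocytes, had 0.25 (adjusted p = 0.32). *Itga9*, the alpha chain closest to alpha4, had -0.02 (adjusted p = 0.93), and *Vcam1*, a ligand on endothelium, had 0.06 (adjusted p = 0.83). Of the 25 other integrin subunits, 3 were called at P5, all lower. *Itga6*, a laminin receptor chain, fell by 0.80 (adjusted p = 9.3e-05) and *Itgb8*, a chain that binds latent TGF-beta, fell by 0.47 (adjusted p = 0.022). *Itgb8* was the single subunit called at P18, where it was 0.72 higher in Tg/Tg (adjusted p = 0.0066). When the mean level of 3 Y-linked genes entered the fit as a covariate, *Itga6* stayed called at P5 (adjusted p = 0.003), while *Itgb1* and *Itgb8* did not (adjusted p = 0.39 and 0.44). Leaving out single P5 arrays also took the adjusted p as high as 0.095 for *Itgb1* and 0.083 for *Itgb8*. None of 12 ligands and adaptors of alpha4 integrins was called between genotypes at either age, and 3 at P5 and 4 at P18 had an unadjusted limma p under 0.05. Between the ages in WT, *Itgb7* rose by 1.03 (adjusted p = 1.7e-05) and *Vcam1* by 0.87 (adjusted p = 5.3e-05), as *Itga4* differed by 1.21, whereas *Itga9* fell by 1.32 (adjusted p = 1.1e-08).

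**Figure D3:**
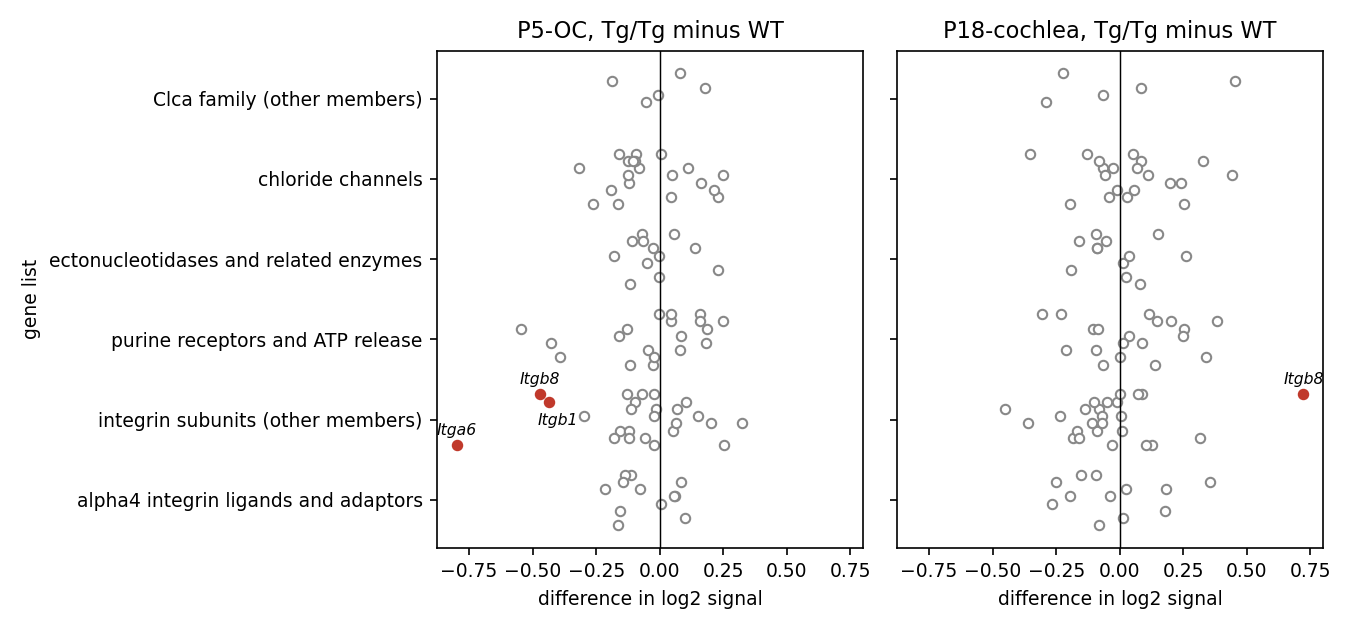
Differences in log2 signal between Tg/Tg and WT (horizontal axes) at P5 and at P18 for the 93 measured genes of 6 lists (vertical axis), 1 point a gene, with filled red points for genes at an adjusted p under 0.05 and open points for the rest. At P5 the red points are *Itga6*, *Itgb8* and *Itgb1*, all left of 0, and at P18 *Itgb8* alone, right of 0.

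Markers of cell types that could carry these genes were set beside them. Of 14 leukocyte markers none was called at P5, where the log2 of their summed signal was 10.67 to 10.99 in Tg/Tg and 10.75 to 11.16 in WT. An unadjusted limma p under 0.05 was found for 3 of the 14, and their log2 changes ran from -0.25 to 0.39 (median 0.06). Their part in the P5 difference of *Itga4* was not tested. In WT 13 of the 14 were higher at P18 (median 3.06), and their summed level was 13.92 to 14.06 over the P18 arrays of both genotypes, while *Itga4* differed by 1.21. The part of leukocytes in that change of *Itga4* was not tested. Markers of hair cells (10 genes), supporting cells (10), fibroblasts (8), immature Schwann cells and satellite glia (10), blood endothelium (7), lymphatic endothelium (4) and neurons (6) had no call at P5. An unadjusted limma p under 0.05 was found for 4 of the blood endothelium markers (median -0.18), 3 of the neuron markers (median -0.31), 3 of the immature Schwann cell markers (median 0.00) and 1 of the supporting cell markers (median -0.03), and for none of the others. The summed hair cell level at P5 was 12.04 to 12.37 in Tg/Tg and 12.07 to 12.23 in WT, and the supporting cell level 13.65 to 14.16 and 13.69 to 14.09, so both cell types of the labelled tissue were present in both groups. Of 5 measured myelin markers all 5 were lower in Tg/Tg at P5 (median -1.59), with summed levels of 12.13 to 12.59 in Tg/Tg and 13.32 to 13.48 in WT. Their part in the P5 values of the 4 genes was not tested. At P18 all 6 skeletal muscle markers were higher in Tg/Tg (median 2.66) and all 4 cerebellar granule cell markers lower (median -1.41). Of 10 immature Schwann cell and satellite glia markers 2 were called higher (median -0.04), and of 5 myelin markers 1 (median 0.15). Summed levels at P18 were 13.06 to 13.12 in Tg/Tg and 12.87 to 12.94 in WT for these glia. For myelin they were 13.18 to 13.34 and 12.99 to 13.09. The other marker lists of cell types had no call at P18. The part of these shifts in the P18 values was not tested.

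**Figure D4:**
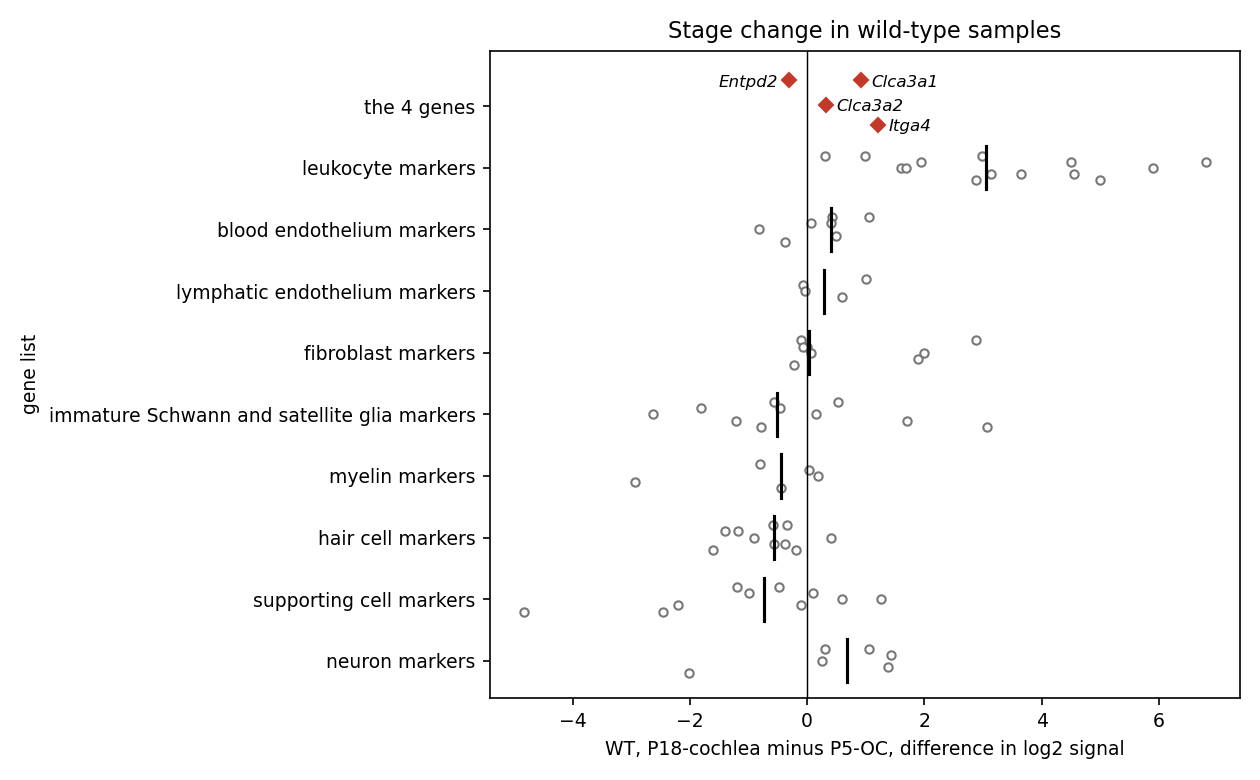
Differences in log2 signal between P18-cochlea and P5-OC in WT (horizontal axis) for the 4 genes (red diamonds) and for markers of 9 cell types (open points, 1 a gene, with a black line at the median of each list). *Itga4* at 1.21 and *Clca3a1* at 0.92 lie to the right of 0 and *Entpd2* at -0.31 to the left, and the leukocyte markers, with a median of 3.06, lie farthest to the right of the 9 lists.

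Genes of the Y chromosome (*Eif2s3y*, *Kdm5d* and *Uty*), which mark male tissue, were unevenly spread over the genotypes at P5. Their mean log2 signal was 8.61 to 8.96 on Tg/Tg replicate 1 and WT replicates 2 to 5, and 3.90 to 4.06 on the other 5 arrays. The part of this in the P5 values of the 4 genes was not tested, since those arrays chose the genes. With this level as a covariate the P5 differences were 0.70 (*Clca3a1*), 0.82 (*Clca3a2*), 0.68 (*Entpd2*) and 0.43 (*Itga4*), again a description. Only Tg/Tg replicate 1 and WT replicate 1 differ in this level from the rest of their group. These values therefore do not show its part in the P5 differences. At P18 the Y-linked mean was 7.65 to 7.66 in Tg/Tg and 7.22 to 7.34 in WT. Every P18 array thus lies between the low and the high level of the P5 arrays. Whether tissue of both sexes was joined in the P18 samples was not tested. The transgene elements matched the titles on every array, with a summed log2 level of 9.82 to 10.73 on the 8 Tg/Tg arrays and 6.67 to 7.21 on the 8 WT arrays.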

How the data were processed

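The authors deposited normalized log2 signals of 34760 probesets on 16 arrays, with values from 2.09 to 13.72. Limma is named in the study's methods, while background correction, normalization and probe summary are not given in the sources used here. No further normalization was applied. Probesets were named from the platform table (21640 with 1 gene, 1321 with several, 11799 unnamed here), with symbols updated by gene ID, and a gene was read from its probeset of highest mean. A linear model with 4 group means was fitted to all arrays by limma 3.58.1 (R 4.3.3), with 12 residual degrees of freedom and 3.23 from the prior. Tests were two-sided and adjusted by Benjamini and Hochberg over all probesets, with calls at an adjusted p under 0.05 and no fold limit. Intervals are 95% intervals. The number of arrays limits the precision.

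The members and lists were chosen with earlier results of these data known. Genes named beside the members were all other Clca genes, *Entpd1*, *Entpd3*, *Itgb1*, *Itgb7*, *Itga9*, *Vcam1*, up to 3 called list genes per direction, the 3 nearest profiles and the measured neighbours by order in the RefSeq gene table. *Olfr1412*, *Gabra5*, the other P5 calls, *Panx3* and *Alpl* were named after their values were seen. Of the genes listed, 19 have no probeset of their own name and were not analysed here. Alternatives were repeated quantile normalization, omission of dim probesets, separate fits, another variance model, array weights, a replicate block, named probesets only, the Y-linked level as covariate, P5 replicate subsets, and omission of single arrays. The fit was tested on simulated data. Plots were drawn with matplotlib 3.10.9.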

Additional observations from a re-analysis of the deposited data

Results flagged for a closer look

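Among 17 genes (the 4 members and 13 named relatives) Dixon's ratio was taken for 34 groups of 5 arrays at P5, of which chance alone would mark about 1 in 20. In 2 groups an array lay far from the others. The lowest Tg/Tg array of *Entpd1* had a gap of 0.759 of the group's range, and the lowest WT array of *Entpd3* a gap of 0.75, where the limit for 5 arrays is 0.71. None of the 4 members had such an array.

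The genotype effect differed between the ages for 2 of the integrin subunits by a test of the difference itself in the limma fit. This test was looked up for the named relatives only. *Itga6* and *Itgb8* are among them because they were called on the same arrays. Of all 34760 probesets, 188 were called higher and 19 lower by this test, and the alternatives were not run for it. For *Itga6* the effect at P18 minus that at P5 was 0.93 on the log2 scale (adjusted p = 0.0029), from -0.80 at P5 to 0.13 at P18. For *Itgb8* it was 1.20 (adjusted p = 0.00043), from -0.47 to 0.72. Tissue and age change together between these comparisons and cannot be told apart.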

How the results depend on the processing

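None of the 4 genes was called at P18 under any alternative (adjusted p between 0.16 and 1). Their P5 differences moved by less than the spread between replicates under all alternatives, and *Clca3a1* and *Clca3a2* were without a value once the dimmest probesets were left out. These P5 values are a description only, since the same arrays chose the genes. Leaving out single arrays gave P5 differences of 0.67 to 0.73 (*Clca3a1*), 0.77 to 0.98 (*Clca3a2*), 0.72 to 0.84 (*Entpd2*) and 0.41 to 0.54 (*Itga4*). At P18 it gave 0.08 to 0.34, -0.01 to 0.17, 0.15 to 0.27 and 0.03 to 0.14. The P18 difference of *Clca3a2* turned to -0.014 without P18-cochlea WT replicate 1. The WT stage change ranged over 0.80 to 1.01, 0.24 to 0.42, -0.38 to -0.26 and 1.18 to 1.24. Repeated quantile normalization moved the WT stage change of *Clca3a1* to 1.21 and of *Clca3a2* to 0.52, and that of *Entpd2* from -0.31 to -0.17. It moved the median of all probesets in that contrast from -0.06 to 0.09, and the share of calls that are higher from 39.6% to 56%.

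Counts for the 93 relatives were less stable. At P5 they were 3 as reported, 1 in separate fits, 8 with array weights, 1 with the Y-linked covariate, and 1 to 10 without single arrays (10 without P5-OC Tg/Tg replicate 3, where 8.36% of all probesets were called, 5 without P5-OC WT replicate 1, with 1.71%, and 1 without Tg/Tg replicate 4, Tg/Tg replicate 5 or WT replicate 5). At P18 they were 1 as reported, 6 in separate fits, 14 with array weights, and 1 without each single array. In WT between the ages they were 46 to 54 without single arrays, an alternative added after the data were seen. *Itga6* was called at P5 in all alternatives. Of the P5 arrays, *Itgb1* lost its call without Tg/Tg replicate 1, 4 or 5 or WT replicate 5, and *Itgb8* without Tg/Tg replicate 4 or 5 or WT replicate 2, 4 or 5, and both lost it in separate fits (adjusted p = 0.22 and 0.19). The cause of these shifts was not tested. Separate probesets for 1 gene could not be compared, since each of the 4 genes has 1.

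With a replicate block within each age, the differences of the 4 genes were unchanged (0.70, 0.86, 0.78 and 0.47 at P5) and *Itgb8* lost its P5 call (-0.47, adjusted p = 0.073). Calls over all probesets at P5 went from 21 higher and 191 lower to 19 and 120. Arrays of the same number correlated in their deviations between -0.22 and 0.36 at P5 and between 0.00 and 0.07 at P18. At P5 the WT array closest to Tg/Tg replicates 1 and 2 bore the same number (0.29 and 0.36). For Tg/Tg replicates 3 to 5 it bore another (5, 3 and 3), so the numbers were not taken as pairs. At P5 the closest WT array thus lay in the same subset, replicates 1 and 2 or replicates 3 to 5, which is the split of *Clca2*. The fit of all arrays holds no term for these subsets. Signals near the low end of the array, as for *Clca3a1* in P5 WT, limit how far its fold can be read.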
